A study of Mus musculus with 6 samples.

Results

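The genes described here encode the subunits of voltage-gated sodium and calcium channels. They were taken by symbol from the deposited gene table: the sodium channel alpha and beta genes (Scn with a number and a or b), and the calcium channel alpha1 (Cacna1), alpha2delta (Cacna2d), beta (Cacnb) and gamma (Cacng) genes. The rule found 40 genes among the 40413 of the table, 14 of sodium channels and 26 of calcium channels. The rule reads symbols only. The data are 6 RNA-seq libraries of N2A-A5 acceptor cells, N2A being the usual short name of Neuro-2a, a mouse neuroblastoma line. The 3 libraries of undifferentiated cells (0 h) came from cultures in 10% fetal bovine serum with 10 µg/mL blasticidin and no further treatment. The 3 libraries of differentiated cells (96 h) came from cells held for 96 h with 10 µM retinoic acid and 1% serum, blasticidin being left out. All 6 are 1 cell line, so the replicates share its genotype, and retinoic acid, serum, blasticidin and time in culture changed together and cannot be told apart.

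Voltage-gated sodium channels open on depolarisation and carry the rising phase of the action potential. One alpha subunit forms the whole pore, and beta subunits, which are single-pass membrane proteins of the immunoglobulin superfamily, set its gating and its place in the membrane. Voltage-gated calcium channels turn depolarisation into calcium entry, which drives transmitter release, gene expression and contraction. Their alpha1 subunit forms the pore, the cytoplasmic beta and the extracellular alpha2delta subunits bring it to the membrane, and of the gamma proteins most are better known as regulators of AMPA-type glutamate receptors. Neuroblastoma cells are used as a model of excitable cells because their lines carry such channels.

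Several alpha genes are close copies, and this bears on how their reads can be told apart. In the GENCODE M21 transcripts (GRCm38), 9.46% of the distinct 31-base words of Scn3a, 8.97% of those of Scn2a, 7.26% of those of Scn1a and 5.87% of those of Scn9a also occurred in another of the 40 genes. The share was 3.03% for Scn10a, 0.902% for Scn4a, 0.452% for Scn8a and at most 0.861% for the calcium channel genes (Cacna1g). The longest exact run shared by the coding sequences of a pair is printed for 1 pair of calcium channel genes, because a fragment that lies wholly inside such a run cannot be given to 1 gene. The run of the T-type channel genes Cacna1g and Cacna1i has 68 bases, at chr11:94443187-94443254 in exon 11 (minus strand) and chr15:80369688-80369755 in exon 12 (plus strand) of GRCm38.
Cacna1g and Cacna1i: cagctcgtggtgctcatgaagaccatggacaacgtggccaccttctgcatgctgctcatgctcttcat
Of the 40 genes, 25 had a count that was not whole in at least 1 library (by more than 0.0005), and Scn2a, Scn3a, Scn9a, Cacna1e, Cacna1h and Cacnb3 had one in all 6. Cacnb3 shared 0% of its words with another of the 40 genes, so a count that is not whole does not by itself mark sharing between copies. For the alpha genes with shared words, values are uncertain as to which of the copies a read came from. Exons of Cacna1a, Cacna1h, Cacnb1, Scn9a and a few untested members also overlap genes on the other strand, and those of Cacng8 a miRNA gene on the same strand. The kit marks strand, and the strand setting of the counting is not given in the sources used here.

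**Figure D1:**
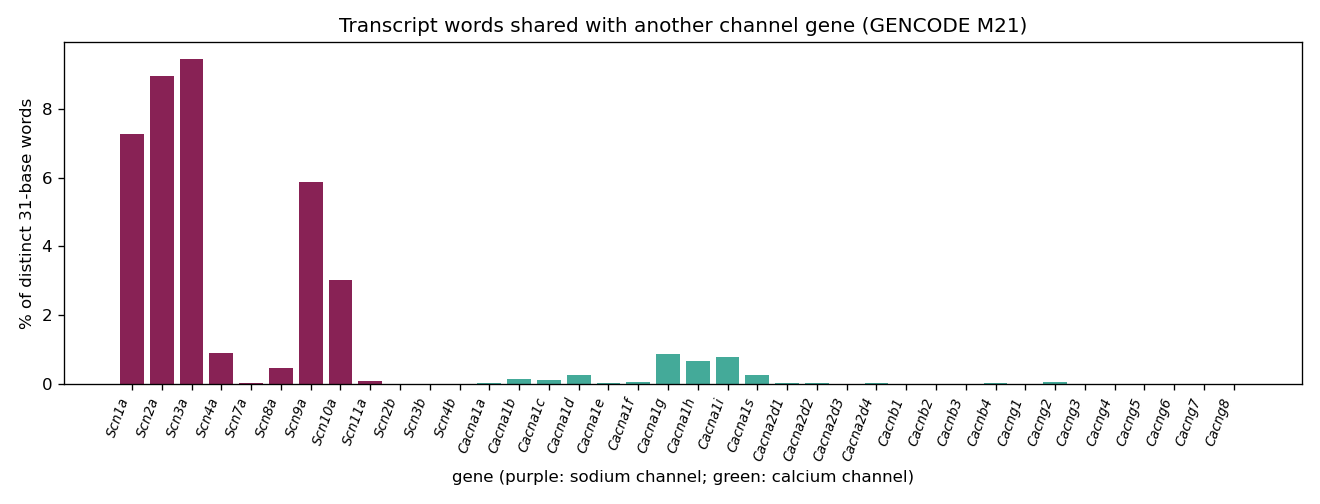
Share of the distinct 31-base words in the GENCODE M21 transcripts of 38 of the genes that also occur in transcripts of another of the 40 channel genes (vertical axis, percent; 1 bar per gene). The bars of Scn1a, Scn2a, Scn3a and Scn9a run from 5.87% to 9.46%, and no calcium channel gene reaches 1%.

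Library totals ran from 16833692 to 20932370 counts, of which the 40 genes together took 0.0397% to 0.0431% at 0 h and 0.0405% to 0.0432% at 96 h. The predicted gene Gm26917 took 18.7% to 22.7% of counts at 0 h and 28.7% to 31.7% at 96 h, and the mitochondrially encoded genes 7.43% to 8.96% and 9.03% to 9.77%. Levels are in CPM (counts scaled to a common library total) on library sizes scaled with TMM factors, which set the bulk of genes equal between libraries. With plain library sizes the log2 fold changes over all genes have a median shifted by -0.25, so each direction given here is relative to the TMM scale. With the mitochondrial, ribosomal RNA and Gm26917 counts removed, 15 of the channel genes tested were higher and 3 lower, as with all counts kept. In these bulk samples fewer cells with a transcript and less of it per cell cannot be told apart.

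Most channel subunit genes that could be tested rose, by modest amounts, and few fell. Of the 40 genes 23 passed the filter on low counts, and of these 15 were higher at 96 h, 3 were lower and 5 did not pass (edgeR, adjusted p under 0.05 over 13705 genes). That is 78.3% called, beside 57.4% of all genes tested. By direction, 65.2% were higher, beside 28.7% of all genes, and 3 of 23 lower, beside 28.8%. The median log2 fold change of the 23 was 0.40, that of all genes 0.03, and the median size of change regardless of direction was 0.45 against 0.41. By at least 2-fold, 5 of the 23 were higher, among them Scn1a, Cacna1a and Cacng6, beside 1608 of the 13705 genes, and the 3 genes called lower by edgeR (Scn3b, Cacna1i and Cacnb1) all changed by less. In 18 of the 23 the 0 h and 96 h libraries were fully apart (78.3%, beside 64.1% of all genes). Scn1a and Cacng6 reached the filter only through their 96 h libraries, so the filter favoured a rise in them, and the counts describe the tested members rather than the family. With library sizes alone 7 of the 23 were higher and 4 lower, beside 17.6% and 42.7% of all genes, and with upper-quartile factors 17 were higher and 1 lower. Without 96 h replicate 2, 11 were higher and 1 was lower.

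**Figure D2:**
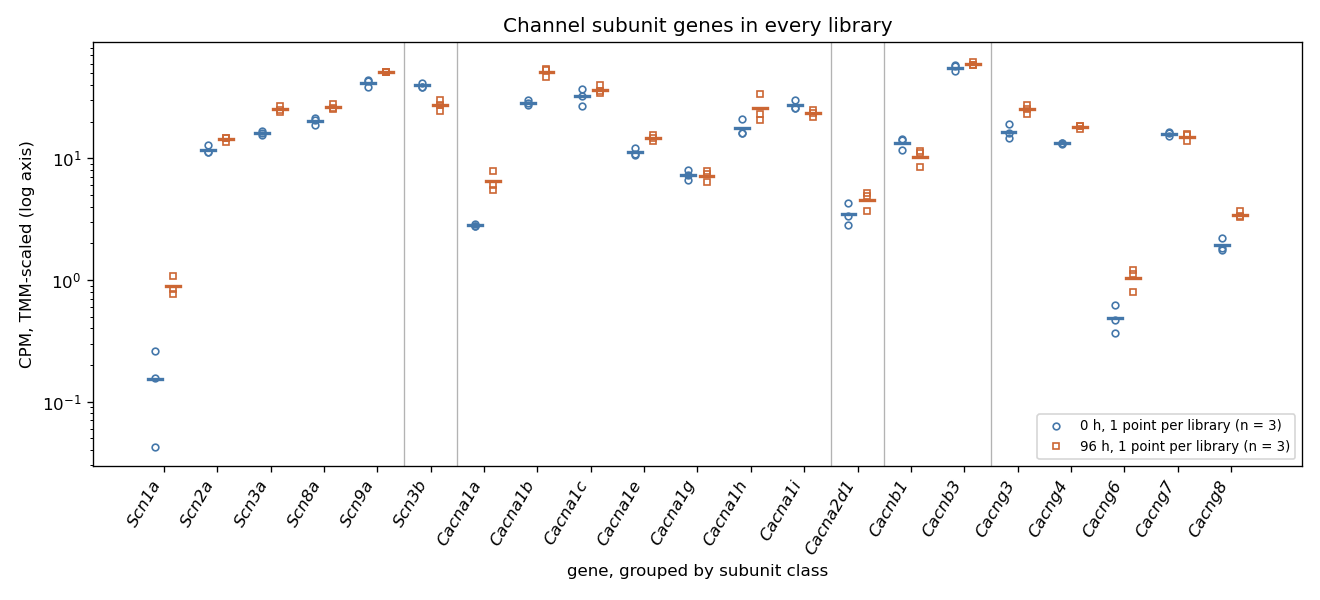
CPM on TMM-scaled library sizes (log axis) of 21 tested channel genes, 1 point per library and a bar at the mean of 3 libraries, circles for 0 h and squares for 96 h, with lines between subunit classes. The squares of Scn1a, Cacna1a and Cacna1b sit clear of their circles, and those of Cacna1c and Cacna1g overlap them.

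All 6 tested sodium channel alpha genes rose, 3 of them also with library sizes alone, where all 6 fold changes stayed above 0 on the log2 scale. The summed level of the 10 alpha genes went from 91.1 ± 2.0 to 121 ± 1.7 CPM (mean ± SD; every mean here is over n = 3 libraries), 1.33 times as high. Scn9a, whose channel Nav1.7 is known from peripheral sensory and sympathetic neurons, was at 38.4, 43.6 and 43.3 CPM in the 0 h libraries (replicates 1, 2 and 3, the order used throughout) and at 51.3, 51.3 and 51.1 CPM in the 96 h libraries. The 96 h values were all above the 0 h values and close to each other. The log2 fold change of Scn9a was 0.29 ± 0.07 (SE), a fold of 1.23 (edgeR adjusted p = 0.00169). Scn3a, an alpha gene prominent in embryonic and neonatal neurons, went from 15.5, 16.7 and 16.1 to 27.1, 24.9 and 24.1 CPM, again without overlap. It had the clearest rise among the well-expressed alpha genes (log2 fold change 0.65 ± 0.08, 1.57-fold, edgeR adjusted p = 1.59e-05). Scn8a, the main alpha gene of nodes of Ranvier and mature axon initial segments, went from 21.5, 20.5 and 18.8 to 25.4, 26.1 and 27.8 CPM, a log2 fold change of 0.38 ± 0.08 (edgeR adjusted p = 0.00130).

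Scn2a, which encodes the alpha subunit of immature axon initial segments, was at 12.8, 11.3 and 11.3 CPM at 0 h and 14.8, 14.6 and 13.7 CPM at 96 h. The groups did not overlap, but the change was small (log2 fold change 0.28 ± 0.11, edgeR adjusted p = 0.0370). Leaving out 0 h replicate 2 or 3 ended the call (adjusted p = 0.115 and 0.0897), as did leaving out 96 h replicate 1, 2 or 3 (0.115, 0.0927 and 0.0531), and so did fits with DESeq2 (0.0819) and without the filter (0.154), within a range of 0.0104 to 0.839 over 16 alternatives. With library sizes alone the log2 fold changes were 0.03 for Scn2a, 0.04 for Scn9a and 0.13 for Scn8a, and none of the 3 passed (edgeR adjusted p = 0.839, 0.658 and 0.282; ranges over the alternatives 0.0104 to 0.839, 2.74e-04 to 0.658 and 2.71e-04 to 0.282).

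Scn1a rose by more but from a very low level. Scn1a, the main alpha gene of fast-spiking interneurons, had 9 counts over the 0 h libraries and 44 over the 96 h libraries, or 0.155, 0.0426 and 0.261 CPM against 1.08, 0.762 and 0.844 CPM. Its log2 fold change was 2.53 ± 0.62 (5.79-fold, edgeR adjusted p = 0.00300). Without 0 h replicate 3 the log2 fold change was 3.13, and without any other single library 2.04 to 2.63. The call of Scn1a held under the 15 alternatives that tested it, and the stricter filter removed the gene. Scn1a reached the filter only through its 96 h libraries, which favours a rise. Its adjusted p and its held call are therefore no independent support for one. Because Scn1a shares coding runs with Scn2a, which had 730 and 719 counts, sums over copies are of use: Scn1a and Scn2a together went from 12.0 ± 0.84 to 15.3 ± 0.68 CPM, and Scn1a, Scn2a, Scn3a and Scn9a, which lie on chromosome 2, from 69.9 ± 2.7 to 91.9 ± 2.3 CPM, 1.32 times as high. Neither sum overlapped between the groups.

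Of the sodium channel beta genes, Scn3b fell. This gene, whose product modulates inactivation and adhesion, was the most abundant, at 41.9, 38.8 and 38.8 CPM at 0 h and 30.0, 27.4 and 24.4 CPM at 96 h. All 96 h libraries lay below all 0 h libraries, and Scn3b fell by 0.55 on the log2 scale (SE 0.08, edgeR adjusted p = 6.09e-05). The call of Scn3b held under all 16 alternatives. Scn2b had 0 counts at 0 h and 9 at 96 h. With the 0 h group set to a floor of 3 counts in all, that is 3.71-fold higher. The 96 h counts are taken as exact there, so the fold is no lower bound. Scn4b had 0 and 2 counts. In share of the class, Scn3b went from 92.7% to 96.6% of beta gene counts at 0 h to 83.2% to 84.9% at 96 h.

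Among the calcium channel pore genes, those of the Cav2 group, the presynaptic N-, P/Q- and R-type channels, all rose. Cacna1b, the N-type gene, was at 30.0, 28.6 and 27.4 CPM at 0 h and at 53.5, 54.0 and 46.7 CPM at 96 h. No libraries overlapped, and the log2 fold change of 0.84 ± 0.07 (1.79-fold) had the smallest adjusted p of the 23 genes (edgeR adjusted p = 3.58e-07). Cacna1a, the P/Q-type gene, started lower, at 2.89, 2.77 and 2.77 CPM, and reached 5.53, 6.08 and 7.91 CPM (log2 fold change 1.21 ± 0.21, 2.32-fold, edgeR adjusted p = 2.12e-04). Both calls held under all 16 alternatives. Cacna1e, the R-type gene, went from 12.2, 10.8 and 10.6 to 13.9, 15.7 and 14.7 CPM (log2 fold change 0.40 ± 0.11, edgeR adjusted p = 0.00690), and did not pass with library sizes alone (0.15, adjusted p = 0.305, the highest of a range from 0.00205). The sum of the 3 Cav2 genes went from 42.7 ± 2.2 to 72.7 ± 3.2 CPM, 1.70 times as high.

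The Cav3 genes, which encode low-voltage-activated T-type channels, did not move together. Cacna1h was at 16.1, 21.1 and 16.2 CPM at 0 h and 20.7, 33.6 and 23.2 CPM at 96 h. Replicate 2 was the highest library of each group and the groups overlapped (log2 fold change 0.54 ± 0.16, edgeR adjusted p = 0.0105). It did not pass without 0 h replicate 1 (adjusted p = 0.0549), 0 h replicate 3 (0.0553) or 96 h replicate 2 (0.0750, log2 fold change 0.30), and with library sizes alone (0.151, log2 fold change 0.28), in a range of 2.22e-06 to 0.151. Cacna1i went the other way, from 25.9, 30.1 and 26.1 to 21.8, 23.7 and 25.1 CPM, and fell by 0.22 on the log2 scale (SE 0.09, edgeR adjusted p = 0.0453). Its call was lost without 0 h replicate 2 (adjusted p = 0.197), 96 h replicate 1 (0.160) or 96 h replicate 2 (0.0845), with upper-quartile factors (0.193), with the stricter filter (0.0617), with DESeq2 (0.0728) and with limma-voom (0.0548), in a range from 0.00125. Cacna1g had a mean of 7.31 CPM at 0 h and 7.20 CPM at 96 h, with overlapping libraries, and did not pass (log2 fold change -0.02 ± 0.16, 0.06 with upper-quartile factors, edgeR adjusted p = 0.928). The Cav3 sum overlapped between the groups, 52.5 ± 5.2 and 56.6 ± 8.0 CPM.

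Of the Cav1 genes, which encode L-type channels, only Cacna1c was tested. It was at 32.7, 27.1 and 37.4 CPM at 0 h and 34.4, 39.8 and 35.4 CPM at 96 h, which overlapped, and did not pass (log2 fold change 0.18 ± 0.10, edgeR adjusted p = 0.161). It passed without 0 h replicate 3 (0.28, adjusted p = 0.0309) and with upper-quartile factors (0.26, 0.0454), and its sign turned with library sizes alone (-0.07, 0.557), in a range of 0.0309 to 0.654. Cacna1d, the other L-type gene of neurons and endocrine cells, had 38 counts over the 0 h libraries and 31 over the 96 h libraries. Cacna1s, the skeletal muscle gene, had 2 and 9, and Cacna1f, the retinal gene, 1 and 2.

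Cacnb3, a beta subunit gene common in neurons, had the highest level per kb of exon length of all 40 genes in both groups (per kb of coding length Scn3b had the highest mean, and at 96 h the libraries of both genes overlapped). Cacnb3 was at 57.1, 57.9 and 52.0 CPM at 0 h and 58.3, 58.5 and 62.3 CPM at 96 h. The groups did not overlap, but Cacnb3 did not pass (log2 fold change 0.10 ± 0.06, edgeR adjusted p = 0.187). The value was 0.18 with upper-quartile factors (adjusted p = 0.0234) and -0.15 with library sizes alone (0.133), in a range of 0.0234 to 0.568. Cacnb1, the beta subunit gene of skeletal muscle that neurons also express, went from 14.4, 11.6 and 14.1 to 11.6, 8.42 and 10.97 CPM and fell by 0.37 on the log2 scale (SE 0.14, edgeR adjusted p = 0.0387). Its highest 96 h library and its lowest 0 h library nearly met. Cacnb1 did not pass without 0 h replicate 1 (adjusted p = 0.117), 0 h replicate 3 (0.0984) or 96 h replicate 2 (0.156) and with upper-quartile factors (0.0961), in a range of 0.00179 to 0.156. Cacnb2 had 1 and 6 counts and Cacnb4 8 and 4. Cacna2d1, the alpha2delta gene that binds gabapentin, was the single tested member of its class, at 3.36, 4.31 and 2.84 CPM and 3.68, 5.14 and 4.87 CPM, and did not pass (log2 fold change 0.38 ± 0.23, edgeR adjusted p = 0.182). Cacna2d2, Cacna2d3 and Cacna2d4 had at most 8 counts in either group.

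Gamma genes rose in 4 of 5 tested cases, and with library sizes alone 1 was called higher and 1 lower. Cacng3 and Cacng4 encode AMPA receptor regulatory proteins of the stargazin type. Cacng3 was at 16.1, 14.6 and 19.1 CPM at 0 h and 27.6, 23.2 and 25.2 CPM at 96 h (log2 fold change 0.62 ± 0.11, edgeR adjusted p = 2.22e-04), and Cacng4 at 13.3, 13.3 and 13.1 CPM and 17.4, 18.4 and 18.5 CPM (0.45 ± 0.09, 7.38e-04). In both genes every 96 h library was above every 0 h library, and the call of Cacng3 held under all 16 alternatives. Cacng4 did not pass with library sizes alone (0.20, adjusted p = 0.111, the highest of a range from 1.93e-04). Cacng8, a further gene of this type, went from 1.76, 2.21 and 1.83 to 3.34, 3.68 and 3.31 CPM (log2 fold change 0.82 ± 0.25, edgeR adjusted p = 0.0126), a call lost without 96 h replicate 2 (0.0527) and with library sizes alone (0.57, 0.0712), in a range from 0.00754. Cacng6, whose relative Cacng1 is a subunit gene of the skeletal muscle channel, had 30 and 53 counts, was at 0.620, 0.468 and 0.366 CPM at 0 h and 0.799, 1.22 and 1.11 CPM at 96 h, and only just passed (log2 fold change 1.11 ± 0.45, edgeR adjusted p = 0.0495). The call of Cacng6 was lost without any 1 of the 6 libraries (adjusted p = 0.0570, 0.117 and 0.121 without 0 h replicates 1, 2 and 3, and 0.0683, 0.167 and 0.145 without 96 h replicates 1, 2 and 3) and in 13 of the 15 alternatives that tested it (0.0370 to 0.167). Cacng7, which encodes a type II regulatory protein, was at 16.4, 15.3 and 16.1 CPM and 15.8, 13.9 and 15.4 CPM and did not pass (log2 fold change -0.08 ± 0.10, edgeR adjusted p = 0.480), though it did with library sizes alone (-0.33, 0.0130, the lowest of a range to 0.987).

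**Figure D3:**
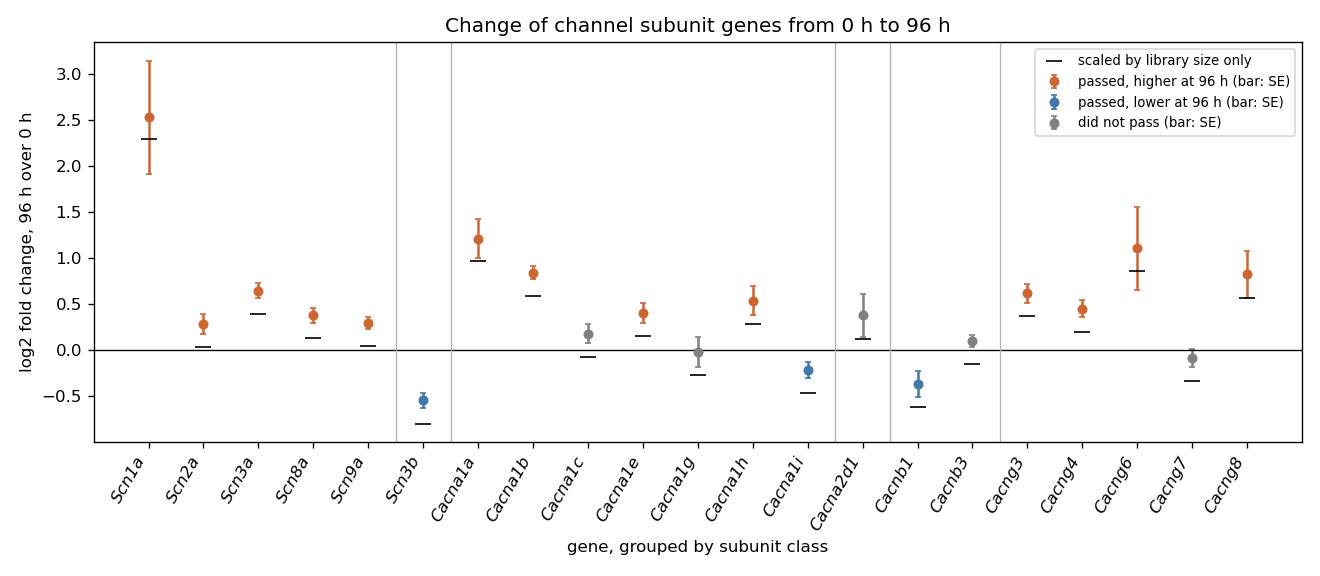
Log2 fold change of each of 21 tested channel genes, 96 h over 0 h (vertical axis), as a point with its SE from edgeR on the TMM scale and a dash for scaling by library size only, with lines between subunit classes. The plotted sodium channel alpha and Cav2 points are all above 0, Scn3b, Cacna1i and Cacnb1 are the called points below it, and each dash lies lower than its point.

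The other 17 genes were close to 0 in both states, with at most 38 counts over the 0 h libraries and 31 over the 96 h libraries (both Cacna1d). Among the sodium channel alpha genes, Scn10a, the nociceptor gene for the tetrodotoxin-resistant channel Nav1.8, had 13 and 24 counts, Scn4a of skeletal muscle 9 and 9, Scn11a 0 and 4 and Scn7a 0 and 2. Without the filter on low counts the adjusted p of Scn10a was 0.348 and that of Scn11a 0.194 (edgeR). Scn2b was the exception among the 17, with an adjusted p of 0.0418 without the filter (edgeR). That value rests on 9 counts, all at 96 h, and is no independent support for a rise. Cacng1 had 0 counts in all 6 libraries, Cacng2, the stargazin gene, 6 and 9, and Cacng5 2 and 1.

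Within each class of pore genes the make-up shifted towards a few members. Shares of a class do not depend on how libraries are scaled to each other. Cacna1b took 21.5% to 23.4% of calcium channel alpha1 counts at 0 h and 28.9% to 34.2% at 96 h, and Cacna1a 2.15% to 2.25% and 3.35% to 4.89%. Cacna1i took 20.2% to 23.4% at 0 h and 13.1% to 15.5% at 96 h, and Cacna1g 5.25% to 6.24% and 4.04% to 4.89%. For these 4 genes no 0 h share fell within the 96 h range, while the shares of Cacna1c, Cacna1e and Cacna1h overlapped. The 3 Cav2 genes together held 32.0% to 35.1% of the alpha1 counts at 0 h and 41.7% to 46.6% at 96 h, and the 3 Cav3 genes 38.5% to 45.4% and 31.2% to 35.7%. Among sodium channel alpha genes, Scn3a went from 17.4% to 17.9% of counts at 0 h to 20.1% to 22.0% at 96 h, while Scn9a went from 43.0% to 47.7% to 41.8% to 42.9%. The share of Scn9a was thus lower at 96 h although its level was higher, but its lowest 0 h and highest 96 h shares nearly met (43.0% and 42.9%). The shares of Scn2a and Scn8a overlapped.

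**Figure D4:**
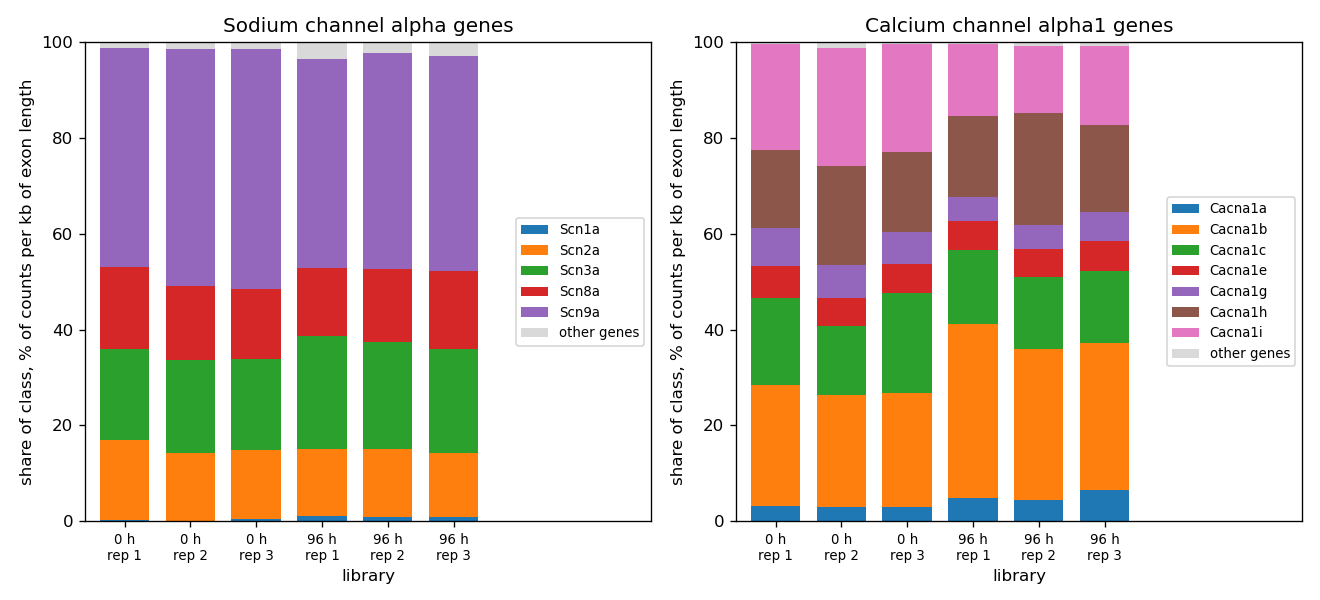
Share of each pore gene in its class, as percent of counts per kb of exon length (vertical axis), stacked for each of the 6 libraries, with the genes not drawn singly in grey. Scn9a is the largest band among sodium channel alpha genes in every library, and the Cacna1b band widens from 23.4% to 25.4% at 0 h to 30.6% to 36.5% at 96 h.

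Levels of different genes were set side by side per kb of exon length (merged exons of coding transcripts in GENCODE M21). Among the sodium channel alpha genes the order of the most abundant 4 was the same in both states: Scn9a (4.17 ± 0.30 CPM per kb at 0 h and 5.11 ± 0.01 at 96 h), Scn3a (1.65 ± 0.06 and 2.59 ± 0.16), Scn8a (1.35 ± 0.09 and 1.76 ± 0.08) and Scn2a (1.30 ± 0.09 and 1.58 ± 0.07), with Scn1a lowest of the tested genes (0.0179 ± 0.013 and 0.105 ± 0.019). Only Scn8a and Scn2a at 0 h overlapped among neighbours in that order. Scn8a has the longest exon length of the 4, and per kb of coding length its mean was above that of Scn3a at 0 h (3.40 and 2.76 CPM per kb), while at 96 h the libraries overlapped (4.43 and 4.34), so the order of these genes depends on the length used. Among the alpha1 genes Cacna1b (2.88 ± 0.13 CPM per kb) and Cacna1i (2.78 ± 0.24) overlapped at the top at 0 h, whereas at 96 h Cacna1b (5.17 ± 0.41) stood above all others, Cacna1h being next at 3.10 ± 0.83. Per kb of coding length Cacna1c had the highest mean at 0 h (4.86 CPM per kb), but its libraries overlapped those of Cacna1i and Cacna1b. At 96 h Cacna1b was first (7.36). Cacnb3 had 18.8 ± 1.1 and 20.2 ± 0.76 CPM per kb of exon length.

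Start regions of 30 of the 40 genes, in 41 windows (250 before to 50 after an annotated start, RefSeq, GRCm38.p6), were searched on both strands for short motifs. The core letters bound by retinoic acid and related nuclear receptors, AGGTCA, were in 4 of the 41 windows (those of Scn8a, Scn1a, Cacng8 and Cacna1f), beside 16.3% of all 32851 windows. The direct repeat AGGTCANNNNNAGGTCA, the spacing known best for retinoic acid receptors, was in 0, beside 0.00913% of all windows. The GC box GGGCGG was in 16 windows of 15 genes, beside 35.7% of all, and TATAAA in 2 (Cacna1d and Scn2a), beside 13.6%. CACGTG, TGACGTCA and TGATGCAA were in 0, beside 7.15%, 1.79% and 0.895% of all windows. Stretches upstream of 4 genes that changed are printed with the motif in capitals. AGGTCA lies upstream of an annotated start of Scn8a and of Cacng8. Several GC boxes lie in a window of Cacna1b, the clearest riser, and of Cacnb1, a gene that fell. Scn8a and Cacnb1 each have a further window, at another annotated start, without the motif printed for them. The coordinates are chr15:100936053-100936152 (plus strand) for Scn8a, chr7:3393871-3393970 (plus) for Cacng8, chr2:24763153-24763402 (minus) for Cacna1b and chr11:98022628-98022877 (minus) for Cacnb1. A motif on the opposite strand appears as its reverse complement.
Scn8a: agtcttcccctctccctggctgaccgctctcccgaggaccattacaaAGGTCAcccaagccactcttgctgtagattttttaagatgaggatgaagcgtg
Cacng8: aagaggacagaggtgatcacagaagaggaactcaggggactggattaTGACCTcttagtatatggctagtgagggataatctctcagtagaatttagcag
Cacna1b: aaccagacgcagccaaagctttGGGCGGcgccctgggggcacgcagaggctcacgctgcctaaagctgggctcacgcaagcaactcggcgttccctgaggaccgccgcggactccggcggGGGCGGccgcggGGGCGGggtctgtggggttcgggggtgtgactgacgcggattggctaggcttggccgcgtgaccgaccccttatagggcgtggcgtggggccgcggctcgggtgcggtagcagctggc
Cacnb1: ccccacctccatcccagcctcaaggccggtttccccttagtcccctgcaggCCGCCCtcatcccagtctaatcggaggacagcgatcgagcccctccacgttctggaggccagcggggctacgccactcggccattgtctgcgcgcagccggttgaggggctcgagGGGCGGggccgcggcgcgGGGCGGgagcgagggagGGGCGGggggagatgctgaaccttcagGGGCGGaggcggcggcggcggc
GC boxes stood upstream of a gene that rose (3 in Cacna1b) and of one that fell (5 in Cacnb1). A letter match describes the window and was not tested for binding.

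Partner genes, here those of channel partners, calcium stores and sensors, and REST with its cofactors, were followed in 5 lists. Of 85 tested genes 33 were higher and 30 lower at 96 h (74.1% called, beside 57.4% of all genes), and 20 and 37 with library sizes alone. Among sodium channel partners 8 of 15 rose and 4 fell (80.0% called, median log2 fold change 0.21). Ank2, an ankyrin gene other than that of ankyrin-G, went from 96.1 ± 5.4 to 185 ± 9.5 CPM (log2 fold change 0.95 ± 0.06). Ankyrin-G and neurofascin cluster sodium channels at the axon initial segment. Nfasc, which encodes neurofascin, went from 1.81 ± 0.40 to 13.6 ± 2.3 CPM (2.91 ± 0.21). Ank3, which encodes ankyrin-G, the organiser of that segment, rose by 0.22 ± 0.04 and Sptbn4, its spectrin partner, by 1.00 ± 0.08. The rise of Ank3 is smaller than the 0.25 by which plain library sizes lower the median of all genes. Sptbn1, in the same list, fell by 0.27 on the log2 scale (from 1145 ± 18 to 948 ± 20 CPM). Nedd4, a ubiquitin ligase that removes channels from the membrane, fell by 0.52 on the log2 scale and Calm2, a calmodulin gene, by 0.43. Nedd4l, the relative of Nedd4 in the same list, went the other way from a low level. It had 21 counts over the 0 h libraries and 53 over the 96 h libraries (log2 fold change 1.64 ± 0.51, edgeR adjusted p = 0.0132). Ank3, Sptbn4, Sptbn1 and Nedd4l were chosen after their values were seen.

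Calcium channel partners and release-site genes divided into 7 higher and 7 lower of 18 (77.8% called, median 0.00). Unc13a, a priming factor of synaptic vesicles, rose from 62.3 ± 2.4 to 122 ± 5.2 CPM (log2 fold change 0.97 ± 0.06), and Cabp1, a calmodulin-like regulator of calcium channels, by 0.80 ± 0.08. Erc1, an active zone scaffold, fell by 0.96 on the log2 scale and Stac, an adaptor of L-type channels, by 1.20. Genes of calcium stores, entry and extrusion were higher in 10 of 24 and lower in 5 (median 0.18), which is 62.5% called and close to the 57.4% of all genes. Atp2a3, a calcium pump of the endoplasmic reticulum, rose 16.6-fold, from 1.04 ± 0.54 to 16.9 ± 0.89 CPM, while Atp2a2, the housekeeping form, fell by 0.23 on the log2 scale from 337 ± 7.2 to 288 ± 5.6 CPM. Unc80, a subunit gene of the sodium leak channel, rose by 0.52 ± 0.06, and Stim1, the store calcium sensor, fell by 0.52 on the log2 scale. Of 18 calcium sensors and effectors 7 rose, with Camk1d (0.56 ± 0.05) and Camk2a (1.15 ± 0.15), both calcium/calmodulin kinase genes, and 5 fell, with Nfatc3, a calcineurin-dependent factor (-0.58 ± 0.06), and Ppp3cb, a calcineurin catalytic subunit (-0.58 ± 0.07). This is 66.7% called, with a median of -0.03.

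The list of REST, a repressor of neuronal genes known to hold down sodium channel genes outside neurons, and its cofactors had 9 of 10 lower and 1 higher (median log2 fold change -0.44), beside 28.8% of all genes lower. With library sizes alone 9 were lower, beside 42.7% of all genes. The largest calls were Hdac1, a histone deacetylase (from 89.3 ± 2.1 to 53.2 ± 2.3 CPM, -0.75 ± 0.06), and Rcor2, a corepressor (from 59.1 ± 3.5 to 30.4 ± 3.4 CPM, -0.96 ± 0.08). Rest itself was at -0.46 ± 0.15 (edgeR adjusted p = 0.0194). The part of these genes in the channel results was not tested.

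Markers of the labelled lineage and of other cells were read beside the channels. Of 14 neuroblastoma and sympathetic genes 13 were tested, with 10 lower and 1 higher, beside 28.8% and 28.7% of all genes tested. The summed level of the 14 was 1771 to 1809 CPM at 0 h and 1174 to 1232 CPM at 96 h. Hand2, Phox2a and Gata2 were well expressed, whereas Th stayed below 1 CPM in the mean of each group. Of 7 nociceptor and sensory neuron genes only 4 were tested and 3 rose, beside 28.7% of all genes higher. The sum of these 7 genes went from 25.3 to 29.3 CPM at 0 h to 94.1 to 98.8 CPM at 96 h. Most of this came through P2rx3, an ATP-gated channel gene that went from 4.14 ± 0.51 to 58.7 ± 2.7 CPM. Pou4f1, a sensory neuron transcription factor gene, did not pass (13.3 ± 1.2 and 13.9 ± 0.64 CPM), Trpv1 and Prdm12 were near 0 and Mrgprd was at 0. Of 7 cardiac genes only 3 were tested and 2 fell (Nkx2-5 and Tnnt2), beside 28.8% of all genes lower, and Myl7 was at 0. The sum of the cardiac genes went from 37.1 to 40.2 CPM at 0 h to 14.5 to 15.1 CPM at 96 h. Skeletal muscle genes summed to 1.81 to 2.17 and 2.01 to 2.89 CPM, with Ckm at 0. Fibroblast genes summed to 4.28 to 4.76 and 10.5 to 12.2 CPM, with Lum at 0, and astrocyte, leukocyte and central neuron lists stayed at or below 2.58 CPM in sum. Oligodendrocyte and Schwann cell genes summed to 6.45 to 8.93 and 5.18 to 9.002 CPM. The part of any of these lists in the channel results was not tested.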

How the data were processed

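Estimated counts per gene (expected counts, which need not be whole) were deposited by the authors for 6 libraries, not normalised. Per the labels' protocols, ribosomal RNA was depleted and libraries were made with a stranded total RNA kit. Per the submitters' processing notes, the tools were Salmon 1.10.1, FastQC 0.12.1 and DESeq2 1.52.0 and the build mm39. No source used here states the role of each or the annotation. Counts were rounded and genes filtered with filterByExpr (13705 of 40413 kept). Libraries were scaled with TMM and compared with the quasi-likelihood F test of edgeR 4.0.16 (R 4.3.3), with Benjamini-Hochberg adjustment over all genes tested and a threshold of 0.05. The SE is the log2 fold change divided by the square root of F. Per the series' design text, replicates are biological, without saying whether cultures were separate; if they were not, p-values measure only technical spread. Libraries of 1 group differed by more than sampling noise (chi-square per degree of freedom 6.79 to 13.9). The fit was first tested on simulated data. Floors cover counting error only, and only in the group set to the floor.

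Members, lists and tests were chosen with earlier results of these data known. Some genes and sequences are not reported here, though counts and sums include them. From each partner list the 2 higher and 2 lower genes with the smallest adjusted p are named, where reported. Lists are described by counts and medians, with no set test. The 31-base words, exon and coding lengths come from GENCODE M21 (GRCm38), matched by symbol for all 40 genes, and start regions from RefSeq (GRCm38.p6), both older than the build of the counts. Protein sequences were not used here. Alternatives were other scalings, filters, DESeq2 1.42.0, limma-voom (limma 3.58.1), removal of mitochondrial, ribosomal RNA and Gm26917 counts, a replicate block, a threshold of 0.01 and leaving out each library.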

Additional observations from a re-analysis of the deposited data

How the results depend on the processing

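Of the 18 called channel genes, 8 kept direction and call under each of the 16 alternatives that tested them, among them Cacna1a, Cacna1b, Cacng3, Scn1a, Scn3a and Scn3b. For Scn1a, which reached the filter only through its 96 h libraries, the kept call is no independent support for a rise. Channel genes called lower were 1 with upper-quartile factors, 1 at an adjusted p under 0.01, and 1 to 3 without 1 library. Those called higher were 7 with library size only and 11 to 13 without 1 library. Partner genes called higher were 20 with library size only. The summed level at 96 h over 0 h was 1.11 (library size only) and 1.40 (upper-quartile factors) for sodium channel alpha genes, 1.09 for calcium channel alpha1 genes, 0.968 for all sodium channel genes and 0.853 for calcium channel beta genes (library size only), the last 0.987 to 1.03 without 1 library. Directions turned for genes that did not pass: Cacna1c at -0.0717 and Cacnb3 at -0.15 with library size only, and Cacna1g at 0.0615 with upper-quartile factors, 0.0008 with the stricter filter and -0.10 to 0.053 without 1 library. With 1 library left out, that group has 2.

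With a replicate block 14 channel genes were higher and 3 lower, and of all genes 3854 were higher and 3858 lower, against 3927 and 3942. Same-numbered libraries did not deviate together (correlations of -0.01, 0.03 and -0.01), which gives no sign of pairing by number. With n = 3 libraries per group and counting noise in the deviations, such values cannot show that the cultures were unpaired. Depth limits the 17 untested genes, of which the most abundant had 38 counts over the 0 h libraries.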
